A study of Mus musculus with 18 samples.

Results

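Elane, Mpo, Prtn3, Ctsg, Fcnb, Ms4a3, Nkg7 and Gstm1 are genes that granulocyte precursors switch on at the promyelocyte stage, and they are described here in monocytes and neutrophils from which the transcription factor gene Zeb2 was to be deleted. They were taken by symbol from the deposited array values, as the probe set annotated to that 1 symbol, and each of the 8 had a single such probe set. They make up 8 of the 19938 genes that the array names by 1 symbol and 8 of the 13387 genes tested. The members were chosen by name and not by a measured value, although earlier results of these data were known when they were chosen.

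Ly-6C(hi) monocytes and neutrophils were sorted from the bone marrow of C57BL/6 mice and hybridised on 18 Affymetrix arrays, 9 for each cell type. The group called CKO here is labelled Zeb2-deficient and carries Zeb2(fl/fl) with the Mx1-Cre(tg) transgene, whose promoter is switched on by interferon in many cell types, and was given poly(I:C), synthetic double-stranded RNA that triggers an interferon response (4 arrays per cell type). The control group carries Zeb2(fl/fl) without Cre and received the same poly(I:C), given as 2 injections of 150 µg within 48 h with marrow taken 3 weeks later (4 arrays per cell type). An untreated control of the same floxed genotype gives 1 array per cell type. The controls carry no Cre, so Cre and the loss of Zeb2 cannot be told apart. Whether arrays of 1 group come from different mice is not stated, so the p-values cover only the spread between arrays, which may be technical. Values are log2 intensities made by the authors with RMA, and the number of arrays limits the precision. The probe set of Zeb2 covers the whole transcript and does not check the deletion: Zeb2 had 9.75, 9.84, 9.46 and 8.74 in CKO monocytes and 10.08, 9.88, 9.88 and 9.86 in control monocytes (adjusted p = 0.272, limma). It had 7.72, 7.10, 7.85 and 8.25 in CKO neutrophils and 7.19, 6.86, 7.54 and 7.40 in control neutrophils (adjusted p = 0.972), which by mean ran against the neutrophil label, and directions below are those of the labels.

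The series lists its arrays in 2 runs, called array set A (control numbers 1 to 3, CKO numbers 1 and 2) and array set B (control numbers 4 and 5, CKO numbers 3 and 4), and the labels do not say what the sets are. The sets stand apart for most of these genes in monocytes, so the members' differences are given with both sets and within each. The sort was checked on defining markers. The mean of the 5 Ly-6C(hi) monocyte markers on the array lay at 9.63 to 10.83 in CKO monocytes and at 10.80 to 11.04 in control monocytes, against 4.66 to 4.99 over the poly(I:C)-treated neutrophil arrays. The mean of 6 neutrophil markers lay at 8.97 to 10.03 in CKO monocytes and 6.11 to 7.07 in control monocytes, against 11.90 to 11.99 over the same neutrophil arrays.

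Primary, or azurophil, granules are the first granules that a granulocyte precursor makes, and their contents are transcribed mainly in promyelocytes and in the late granulocyte-monocyte progenitors, after which transcription falls while the stored protein stays. Mature neutrophils therefore hold these proteins with little of their mRNA. The factors PU.1, C/EBP, Myb, Runx and Gfi1 are known to act on these genes in mouse and human precursors, and monocyte precursors express part of the programme too.

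The RefSeq promoters show what the granule enzymes share and where they differ. Prtn3 (chr10:79879667-79883174, plus strand, GRCm38.p6) and Elane (chr10:79886312-79888216, plus strand) are neighbours, with 3137 bases from the end of Prtn3 to the start of Elane. Mpo lies on the plus strand at chr11:87793784-87804412, Ctsg on the minus strand at chr14:56099885-56102574 and Gstm1 on the minus strand at chr3:108012250-108017973. The 250 bases upstream of each RefSeq start follow, read 5′ to 3′ on the gene's own strand, for the 3 proteases and the peroxidase, which are the granule enzymes, and for Gstm1, the member with the smallest change. Capitals mark matches on either strand to AGGAAG (an ETS core of the kind PU.1 binds), AACGG (a Myb core), TTNNGNAA (a C/EBP motif), TGTGGT (a Runx core) and CACCTG (the E-box that Zeb factors bind).

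Elane, chr10:79886062-79886311, plus strand: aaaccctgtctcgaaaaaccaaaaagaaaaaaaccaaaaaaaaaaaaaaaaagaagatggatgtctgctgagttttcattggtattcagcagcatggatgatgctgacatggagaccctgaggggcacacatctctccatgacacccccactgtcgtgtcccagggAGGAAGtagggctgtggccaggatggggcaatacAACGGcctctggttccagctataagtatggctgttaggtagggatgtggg
Prtn3, chr10:79879417-79879666, plus strand: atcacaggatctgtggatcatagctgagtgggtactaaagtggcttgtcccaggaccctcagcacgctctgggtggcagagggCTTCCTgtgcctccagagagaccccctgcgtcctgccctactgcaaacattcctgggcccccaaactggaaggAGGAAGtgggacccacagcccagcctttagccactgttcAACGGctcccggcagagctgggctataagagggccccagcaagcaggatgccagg
Mpo, chr11:87793534-87793783, plus strand: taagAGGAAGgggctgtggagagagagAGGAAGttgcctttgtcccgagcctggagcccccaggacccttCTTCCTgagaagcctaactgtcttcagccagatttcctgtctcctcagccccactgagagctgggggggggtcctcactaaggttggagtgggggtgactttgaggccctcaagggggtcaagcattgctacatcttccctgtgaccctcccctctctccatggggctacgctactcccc
Ctsg, chr14:56102575-56102824, minus strand: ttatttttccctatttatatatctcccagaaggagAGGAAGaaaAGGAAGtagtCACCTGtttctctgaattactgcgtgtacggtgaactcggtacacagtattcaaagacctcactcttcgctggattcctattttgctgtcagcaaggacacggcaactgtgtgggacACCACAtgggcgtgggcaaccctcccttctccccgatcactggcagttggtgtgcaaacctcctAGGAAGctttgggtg
Gstm1, chr3:108017974-108018223, minus strand: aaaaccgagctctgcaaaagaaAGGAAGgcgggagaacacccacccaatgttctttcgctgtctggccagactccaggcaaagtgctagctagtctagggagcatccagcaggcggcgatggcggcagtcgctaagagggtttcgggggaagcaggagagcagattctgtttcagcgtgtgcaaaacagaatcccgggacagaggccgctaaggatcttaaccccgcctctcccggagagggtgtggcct

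AGGAAG was found in all 8 members' windows and in 29.5% of the 32851 mouse RefSeq windows of the same length. AACGG was found in 2 of 8, Elane at position -50 and Prtn3 at -55 counted from the start, and in 14.5% of all windows. TTNNGNAA was found in 2 of 8 (Fcnb and Ms4a3; 36.8% of all windows), TGTGGT in 2 of 8 (Ctsg and Nkg7; 14%) and CACCTG in 1 of 8 (Ctsg, at -196; 17.2%). No 2 motif matches overlapped. The motifs were settled after matches had been seen, and a match describes letters, not a bound site.

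In monocytes, all 8 genes were higher in CKO than in control arrays (adjusted p under 0.05, limma, Benjamini-Hochberg over 13387 genes). Of all genes tested, 5.11% were higher in CKO monocytes by the same rule. The 7 genes other than Gstm1 rose 5.13-fold to 14.4-fold, and Gstm1 rose 1.58-fold. The median log2 change of the 8 was 2.68, beside -0.03 over all genes tested. The 6 neutrophil markers given above were also higher in CKO monocytes by mean, and their part in this result was not tested. These are bulk samples, in which a larger share of cells of a type and more RNA per cell cannot be told apart.

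The 3 serine proteases rose together. Elane, neutrophil elastase, which cleaves extracellular matrix and bacterial proteins, had 10.94, 9.28, 11.44 and 11.56 in CKO monocytes and 7.08, 6.64, 9.78 and 8.96 in control monocytes. The highest control array lay above the lowest CKO array, and the means were 10.80 ± 1.05 in CKO and 8.11 ± 1.5 in control monocytes (SD, n = 4 each), a log2 change of 2.69 ± 0.58 (SE; 6.44-fold, adjusted p = 0.00707 in limma). In a fit of the 8 monocyte arrays alone the same change had adjusted p = 0.0572. Prtn3, proteinase 3, the neighbouring elastase-like protease, had 10.13, 8.89, 10.54 and 10.80 in CKO monocytes and 6.94, 6.93, 8.72 and 8.33 in control monocytes. Every CKO array lay above every control array for Prtn3, and the change was 2.36 ± 0.46 (SE; 5.13-fold, adjusted p = 0.00306, limma). Ctsg, cathepsin G, a chymotrypsin-like protease, had 9.71, 7.65, 10.22 and 10.63 in CKO monocytes and 6.47, 6.37, 7.80 and 6.91 in control monocytes. A single control array exceeded a single CKO array for Ctsg, and the change was 2.67 ± 0.49 (SE; 6.35-fold, adjusted p = 0.00185, limma).

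Mpo and Fcnb encode the peroxidase and the lectin of the group. Mpo, myeloperoxidase, which makes hypochlorous acid from hydrogen peroxide and chloride, had 11.82, 10.55, 11.92 and 12.06 in CKO monocytes and 8.0, 7.42, 10.66 and 9.72 in control monocytes. The groups overlapped in 1 array each, and the change was 2.64 ± 0.61 (SE; 6.23-fold, adjusted p = 0.0117, limma). Fcnb, ficolin B, a pattern-recognition lectin of the complement system, had 10.31, 9.09, 10.12 and 10.34 in CKO monocytes and 6.56, 6.15, 7.80 and 6.83 in control monocytes. All CKO arrays lay above all control arrays. Its change of 3.13 ± 0.33 (SE; 8.75-fold, adjusted p = 9.86e-06, limma) had the smallest p of the 8 genes in this comparison.

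The 2 membrane proteins had the largest changes. Ms4a3, a membrane protein of the MS4A family whose gene marks granulocyte-monocyte progenitors, had 9.83, 7.98, 10.45 and 10.74 in CKO monocytes and 5.43, 5.12, 8.27 and 7.0 in control monocytes. The groups overlapped in 1 array each, and the change was 3.29 ± 0.58 (SE; 9.80-fold, adjusted p = 0.00148, limma). Nkg7, a granule membrane protein best known from cytotoxic lymphocytes, had 9.99, 8.08, 10.56 and 10.98 in CKO monocytes and 4.66, 5.02, 7.81 and 6.73 in control monocytes. Its groups did not overlap, and the change of 3.85 ± 0.64 (SE; 14.4-fold, adjusted p = 0.000767, limma) was the largest of the 8. The cytotoxic lymphocyte markers Gzma, Gzmb, Klrd1 and Ncr1 were below the 40th percentile of the array in every group. Prf1, Cd3e and Cd8a, also in that list, averaged 5.20, 5.16 and 4.48 in CKO and 5.26, 5.15 and 4.76 in control monocytes. The mean of the 7 markers of that type was 3.95 to 4.13 in CKO and 4.0 to 4.21 in control monocytes.

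Gstm1, a mu-class glutathione transferase that conjugates glutathione to electrophiles, was the exception in size. It had 10.88, 9.96, 10.81 and 11.06 in CKO monocytes and 10.11, 10.11, 9.94 and 9.91 in control monocytes. CKO array 2 lay among the controls, whose spread was only 0.11 (SD, n = 4). The change was 0.66 ± 0.19 (SE; 1.58-fold, adjusted p = 0.0465, limma), while the fit blocked on replicate number gave 0.59 with adjusted p = 0.0642. The Gstm1 call was also lost on leaving out any 1 of the 8 monocyte arrays compared other than CKO array 2 (adjusted p up to 0.167).

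**Figure D1:**
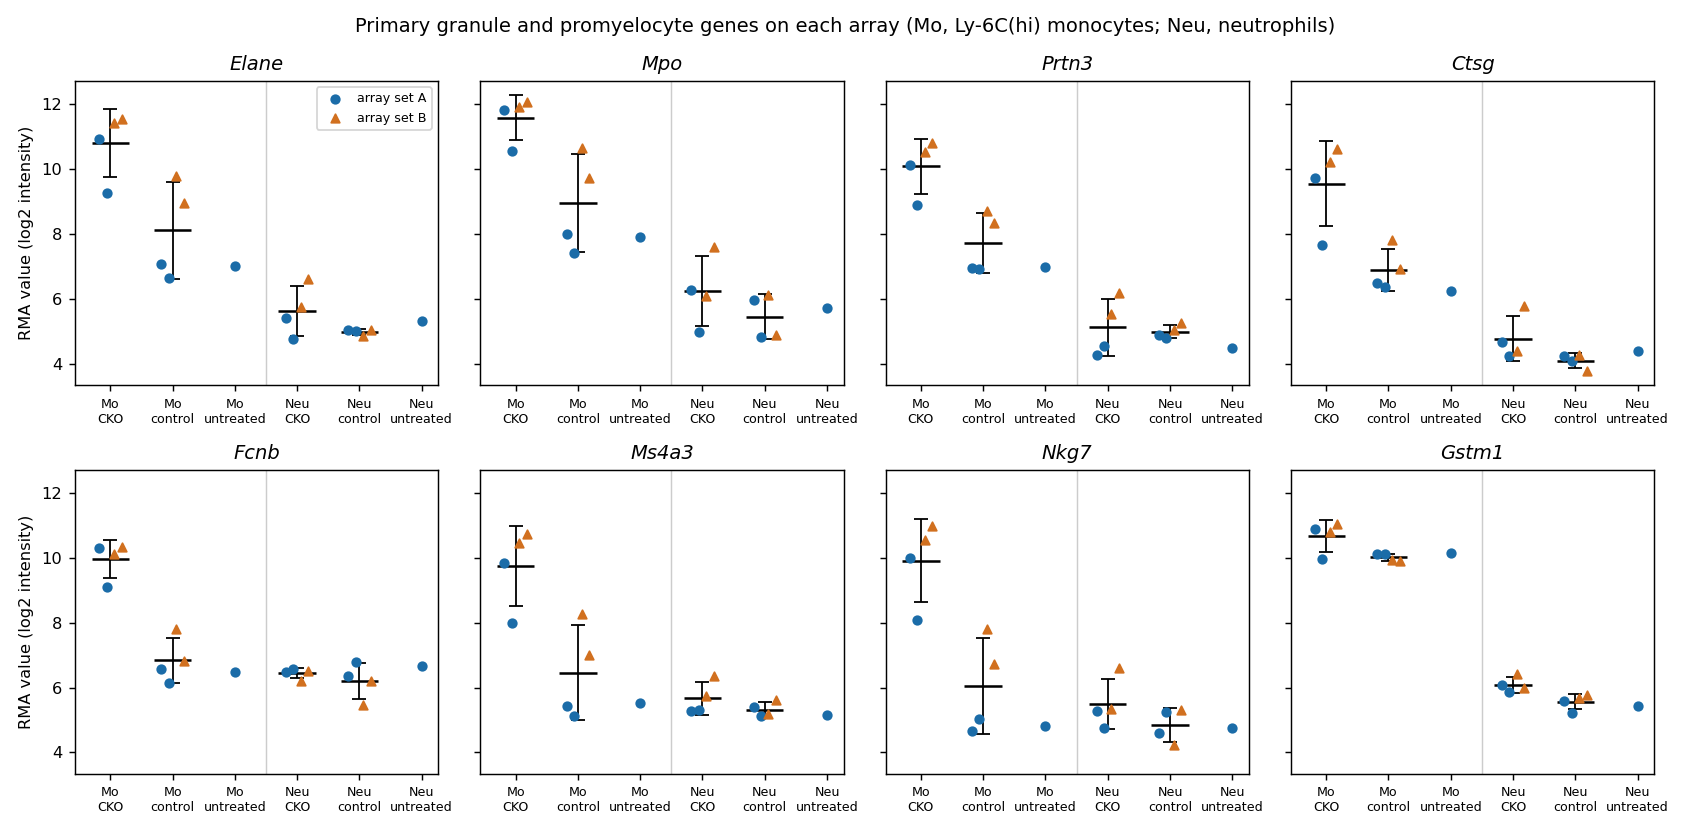
RMA value (log2 intensity) of each of the 8 genes on each of the 18 arrays, with CKO, control and untreated groups of monocytes (Mo) and neutrophils (Neu) along each horizontal axis. Bars give the mean and SD of 4 arrays, circles are array set A and triangles array set B; CKO monocytes stand highest in every panel by mean, and Prtn3, Fcnb and Nkg7 show no overlap with control monocytes.

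Groups did not overlap for 3 of the 8 genes, with CKO above, and the same held for 6.12% of all genes tested. The monocyte arrays of a group kept nearly the same order from gene to gene. CKO array 2 was the lowest CKO monocyte array for 8 of 8 genes and CKO array 4 the highest for 8 of 8. Control array 4 was the highest control monocyte array for 7 of 8 genes. Among the 7 genes without Gstm1, the 21 pairwise correlations over the 9 monocyte arrays ran from 0.926 to 0.998 with a median of 0.974. These arrays share groups and sets, so the correlations are a description. Gstm1 correlated with the other 7 at 0.667 to 0.885. Over the 9 neutrophil arrays the same 21 correlations ran from -0.223 to 0.9 with a median of 0.669, and no control neutrophil array was highest for more than 4 of 8 genes. Among CKO monocytes, 6 of 8 genes ran in exactly the opposite order to Zeb2 over the 4 arrays, with Fcnb and Gstm1 the exceptions. This was noticed in the values and rests on 4 arrays. The genes share nearly the same array order, so the 6 are not separate observations. The share of all genes in that order was not counted. In control monocytes 0 of 8 ran opposite to Zeb2. In CKO neutrophils 0 of 8 ran opposite to Zeb2 and 2 of 8 ran in exactly its order, and in control neutrophils 1 of 8 ran opposite and 0 in its order.

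The array sets also differed within both monocyte groups. In control monocytes, set B minus set A had a median of 1.97 over the 8 (from -0.19 for Gstm1 to 2.51 for Elane). Over all genes tested that difference had a median of -0.01 and a 10th to 90th percentile range of -0.33 to 0.28. In CKO monocytes the median over the 8 was 1.27 (from 0.52 for Gstm1 to 1.74 for Ctsg). Over all genes tested it was -0.03 there, with a 10th to 90th percentile range of -0.44 to 0.41. Other lists moved less with the set than the 8 did, by mean. In control monocytes the mean of 25 secondary and gelatinase granule genes was higher in set B by 0.79, that of 31 other primary granule genes by 0.33, that of 23 cell cycle genes by 0.02 and that of 18 Ly-6C(hi) monocyte genes by 0.01, against 1.63 for the mean of the 8. In CKO monocytes the mean of the 8 was higher in set B by 1.20, that of the cell cycle genes by 0.68, that of the other primary granule genes by 0.39 and that of the secondary and gelatinase granule genes by 0.33, while the Ly-6C(hi) monocyte genes had -0.51. In CKO neutrophils, set B minus set A had a median of 0.85 over the 8 (from -0.17 to 1.44). In control neutrophils it was 0.01 (from -0.73 to 0.32), so the sets did not stand apart there by median. What the sets stand for was not tested.

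Within each set the change kept its direction for all 8 genes. Nkg7 changed by 4.19 in set A and 3.50 in set B (adjusted p = 0.00107 and 0.000373, limma, 2 arrays a group). Fcnb changed by 3.34 and 2.91 and Ms4a3 by 3.63 and 2.96 in sets A and B. Elane changed by 3.25 and 2.13, Mpo by 3.48 and 1.80 and Prtn3 by 2.58 and 2.14, each larger in set A. Ctsg changed by 2.26 in set A and 3.07 in set B. All 7 were past the threshold within both sets. Of the 13387 genes tested, 215 were past it within set A and 1724 within set B, in either direction. The Gstm1 difference was 0.31 in set A (adjusted p = 0.81, limma) and 1.01 in set B (adjusted p = 0.00228). The differences between the sets in these changes were not tested.

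**Figure D2:**
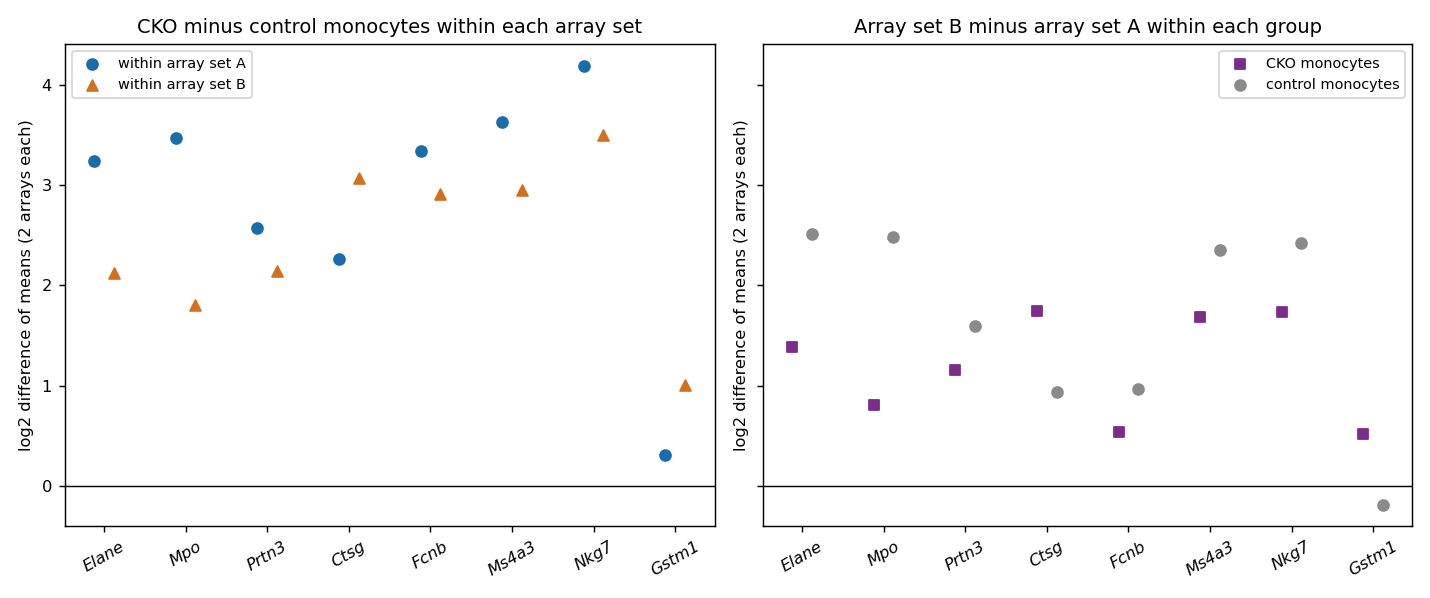
Left, log2 CKO minus control difference of monocytes for each gene within array set A (circles) and within set B (triangles). Right, log2 difference of set B minus set A within CKO monocytes (squares) and within control monocytes (circles); all left-hand values are above 0, and on the right the control value is 2.51 for Elane and -0.19 for Gstm1.

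In neutrophils, none of the 8 genes passed the test, with 0 of 8 called and 0.12% of all genes tested called in either direction. All 8 fitted differences were above 0, from 0.14 for Prtn3 to 0.80 for Mpo, with adjusted p of 0.813 to 0.999 (limma). At an unadjusted p under 0.05, 1 of 8 (Gstm1) and 5.1% of all genes passed. Elane had 5.40, 4.77, 5.74 and 6.61 in CKO neutrophils and 5.04, 5.01, 4.85 and 5.03 in control neutrophils. The difference of 0.65 had a 95% confidence interval from -0.58 to 1.87. Mpo had 6.27, 4.99, 6.10 and 7.59 in CKO and 5.96, 4.82, 6.13 and 4.87 in control neutrophils, with an interval of -0.49 to 2.08. The neutrophil differences were larger in array set B than in set A for 7 of 8 genes, Gstm1 being the exception. In sets A and B the values were 0.06 and 1.23 for Elane, 0.24 and 1.35 for Mpo, 0.30 and 1.07 for Ctsg and 0.10 and 1.20 for Nkg7. They were 0.04 and 0.65 for Ms4a3, -0.42 and 0.70 for Prtn3, -0.04 and 0.52 for Fcnb and 0.58 and 0.48 for Gstm1. None passed within either set, with adjusted p of 0.812 to 0.999 in set A and 0.152 to 0.669 in set B (limma, 2 arrays a group).

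Neutrophil array 4 of the CKO group stood highest. It was the highest CKO neutrophil array for 6 of 8 genes, with a mean over the 8 of 6.45 against a group median of 5.58. The same array had the highest mean of Ly-6C(hi) monocyte genes (5.19) among the CKO neutrophils, of eosinophil genes (6.22) and of cell cycle genes (6.6). The part of these genes in the result was not tested. Without CKO array 4 the fitted difference of Prtn3 was -0.21. Ctsg had 4.66, 4.24, 4.39 and 5.78 in CKO neutrophils and 4.24, 4.07, 4.27 and 3.77 in control neutrophils. It was not above the array's 40th percentile (4.40 to 4.50 in neutrophils) on 2 of 4 CKO and 4 of 4 control arrays, so its level there is only bounded from above.

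The neutrophil groups did not overlap for Gstm1. It had 6.09, 5.86, 6.42 and 5.98 in CKO neutrophils and 5.57, 5.23, 5.68 and 5.76 in control neutrophils. Such a gap held for 1 of the 8 genes and 1.84% of all genes with CKO above, but the difference of 0.53 ± 0.19 (SE) had adjusted p = 0.813 (limma).

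The last 4 genes showed no separation. Prtn3 had 4.27, 4.55, 5.53 and 6.17 in CKO neutrophils and 4.88, 4.78, 5.04 and 5.25 in control neutrophils. Fcnb had 6.49, 6.57, 6.20 and 6.52 in CKO neutrophils and 6.35, 6.79, 5.47 and 6.21 in control neutrophils. All 8 of these values lay below the lowest CKO monocyte array (9.09). Ms4a3 had 5.28, 5.30, 5.74 and 6.35 in CKO neutrophils and 5.39, 5.12, 5.17 and 5.6 in control neutrophils. Nkg7 had 5.28, 4.75, 5.35 and 6.59 in CKO neutrophils and 4.6, 5.23, 4.22 and 5.31 in control neutrophils. For Prtn3, Fcnb, Ms4a3 and Nkg7 the fitted differences were 0.14, 0.24, 0.34 and 0.65, with 95% intervals that all included 0.

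The difference between the monocyte and the neutrophil change was tested directly. Fcnb passed, with a change larger by 2.89 ± 0.46 (SE) in monocytes (adjusted p = 0.00201, limma). That made 1 of 8, and 2.17% of all genes tested passed with the larger change in monocytes. Nkg7 (3.20 ± 0.90, adjusted p = 0.0703), Ms4a3 (2.95 ± 0.83, 0.0699) and Prtn3 (2.22 ± 0.65, 0.0826) did not pass. Blocked on replicate number, Fcnb, Prtn3, Ctsg, Ms4a3 and Nkg7 passed, 5 of 8, with adjusted p of 0.00557, 0.00574, 0.0428, 0.0145 and 0.0275. That fit called 459 of the 13387 genes tested, in either direction. Without a block, leaving out CKO monocyte array 2 gave 6 of 8 and 904 of all genes. Leaving out control monocyte array 4 gave 4 of 8 and 310, and leaving out CKO neutrophil array 4 gave 2 of 8 and 266. Elane (2.04 ± 0.82, adjusted p = 0.258), Ctsg (1.99 ± 0.69, 0.161) and Mpo (1.84 ± 0.87, 0.362) did not pass without a block. For Gstm1 the difference of the changes was 0.13 ± 0.28 (adjusted p = 0.911), with a 95% interval of -0.45 to 0.71. Within array set A, 5 of 8 passed, with 3.19 for Elane (adjusted p = 0.043), 3.0 for Prtn3, 3.38 for Fcnb, 3.59 for Ms4a3 and 4.09 for Nkg7. Within set B, 3 of 8 passed, with 1.44 for Prtn3, 2.40 for Fcnb and 2.30 for Ms4a3 (limma). Elane had 0.90 there (adjusted p = 0.258), Nkg7 2.30 (0.0586) and Mpo 0.45 (0.799), against 3.23 (0.0946) for Mpo in set A. Ctsg (1.97 against 2.00 in sets A and B) and Gstm1 (-0.27 against 0.53) passed within neither. Of the 13387 genes tested, 72 passed within set A and 731 within set B, in either direction.

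**Figure D3:**
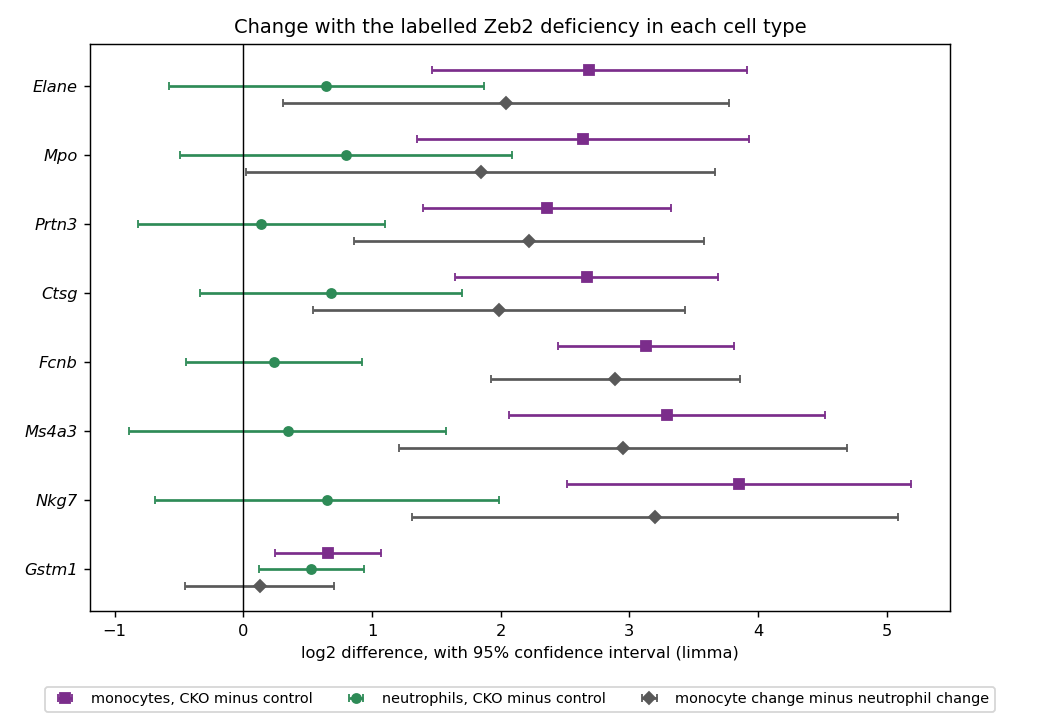
Log2 difference with its 95% confidence interval (limma) for each gene, CKO minus control in monocytes (squares), CKO minus control in neutrophils (circles) and the monocyte change minus the neutrophil change (diamonds). Monocyte intervals lie above 0 for all 8 genes, neutrophil intervals include 0 for 7, and for Gstm1 the 2 changes are 0.66 and 0.53.

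Among controls, monocytes held more of Elane, Mpo, Prtn3, Ctsg and Gstm1 than neutrophils. This comparison uses the same control arrays as the genotype comparisons. Of the 8 genes, 5 were higher in control monocytes (29.9% of all genes tested were), and 5 had no overlap between the cell types (28.6% of all genes). Gstm1 had the largest difference with both array sets, 10.02 ± 0.11 in control monocytes against 5.56 ± 0.23 in control neutrophils (SD, n = 4 each; 22-fold, adjusted p = 2.71e-12, limma). Mpo (11.4-fold, adjusted p = 8.94e-05), Elane (8.75-fold, 0.00017) and Prtn3 (6.69-fold, 5.34e-05) followed. Ctsg was at least 5.50-fold higher in control monocytes, set against the 40th percentile in neutrophils (adjusted p = 8.12e-05). Fcnb, Ms4a3 and Nkg7 had log2 differences of 0.63, 1.13 and 1.22 with adjusted p of 0.106, 0.103 and 0.108. With the array set as a block, Ms4a3 (adjusted p = 0.0251) and Nkg7 (0.0368) passed, which made 7 of 8. That fit called 8265 of the 13387 genes tested, in either direction. Ms4a3 also passed with the replicate block (0.0304), and both passed with the replicate block within genotype (0.0419 and 0.0455, limma).

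This difference between cell types depended on the array set. Within set A, Fcnb, Ms4a3 and Nkg7 had -0.22, 0.02 and -0.07 and did not pass, while within set B they had 1.47, 2.25 and 2.51 and passed (adjusted p = 0.00167, 0.000202 and 0.00064, limma). In sets A and B, Elane was higher in control monocytes by 1.83 and 4.43, Mpo by 2.32 and 4.69, Prtn3 by 2.10 and 3.38 and Ctsg by 2.27 and 3.33. Gstm1 was higher by 4.71 and 4.20, so that in set B Mpo and Elane stood above it. The Ctsg values use its measured means in control neutrophils, which lay under the 40th percentile.

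With both array sets together, the 4 group means had the same order for 8 of 8 genes. From the highest it was CKO monocytes, control monocytes, CKO neutrophils and control neutrophils. The last pair passed the test for 0 of 8, and the share of all genes in this order was not counted. Control monocytes and CKO neutrophils, which neighbour each other in that order, were not tested. Within array set A the order did not hold for Fcnb, Ms4a3, Nkg7 and Prtn3. Control monocytes lay below CKO neutrophils there for Fcnb (6.35 against 6.53), Ms4a3 (5.277 against 5.290) and Nkg7 (4.84 against 5.02). For Prtn3, CKO neutrophils lay below control neutrophils in that set (4.41 against 4.83).

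The single untreated arrays fell near the poly(I:C) controls. In monocytes, the untreated array read 7.02 for Elane, 7.90 for Mpo, 6.98 for Prtn3, 6.24 for Ctsg, 6.47 for Fcnb, 5.51 for Ms4a3, 4.83 for Nkg7 and 10.14 for Gstm1. It lay within the range of the 4 control arrays for 6 of 8 genes and below their mean for 7 of 8, by up to 1.23. That mean includes the set B controls. Against the control means of set A alone, it lay above for Elane (6.86), Mpo (7.71), Prtn3 (6.93), Fcnb (6.35), Ms4a3 (5.28) and Gstm1 (10.11). It lay below the set A means for Ctsg (6.42) and Nkg7 (4.84). In neutrophils the untreated array lay within the control range for 5 of 8, with differences from the control mean of -0.49 to 0.47. The untreated arrays belong to set A, and with 1 array each there is no test.

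Other genes of the primary granule and of promyelocytes followed in part. Of 31 tested, 13 were higher and 1 was lower in CKO monocytes, with a median change of 0.38, beside 5.11% higher and 2.44% lower over all genes. The 4 with the largest changes were Cd63, a granule membrane tetraspanin (3.15 ± 0.65 SE, adjusted p = 0.00482, limma), Mgst2, a microsomal glutathione transferase (2.79, 0.000217), Prss57, an azurophil serine protease (2.32, 0.000154), and Serpinb1a, an inhibitor of elastase, proteinase 3 and cathepsin G (2.16, 9.53e-05). Prss57 had 6.89, 5.59, 7.19 and 7.85 in CKO monocytes and 4.39, 4.33, 5.21 and 4.31 in control monocytes, without overlap. CKO array 2 was again the lowest of its group. Cd63, Mgst2 and Serpinb1a were higher in control neutrophils than in control monocytes (log2 monocyte minus neutrophil of -3.76, -3.73 and -2.57), the opposite direction to Elane, Mpo, Prtn3, Ctsg and Gstm1. In neutrophils 0 of the 31 passed with CKO against control.

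Of 14 glutathione transferases and related enzymes besides Gstm1, 4 were higher in CKO monocytes and 0 lower, with a median of 0.07. They were Mgst2, Gstm5 (1.39, adjusted p = 0.00193), Gstm4 (0.76, 0.0139) and the glutathione reductase Gsr (0.36, 0.0495, limma). The Gsr call was lost in 7 of 8 fits that left out 1 monocyte array (adjusted p up to 0.158) and the Gstm4 call in 2 of 8 (up to 0.0549). Gstm1 and its close relatives share sequence, and signal between their probe sets cannot be told apart here. Of 6 serine proteases and serpins outside the group, 2 were higher, Prss57 and Serpinb1a. Of 2 haem peroxidases and ficolins besides Mpo and Fcnb and of 9 cytotoxic lymphocyte genes besides Nkg7, 0 were called in either direction.

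**Figure D4:**
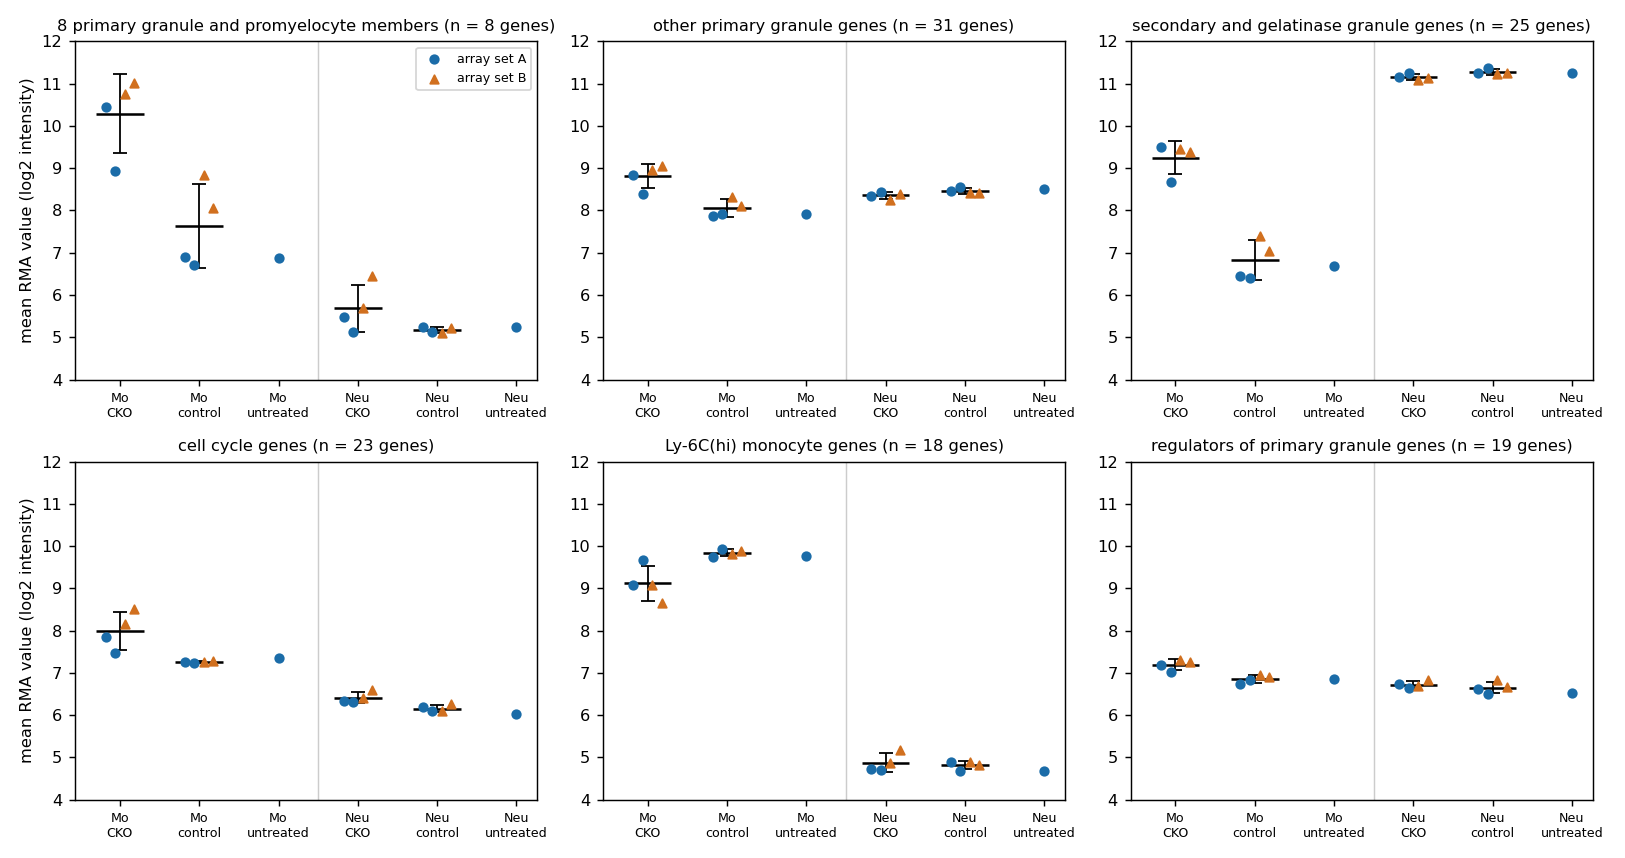
Mean RMA value (log2 intensity) over the genes of each list on each of the 18 arrays, for the 8 genes, other primary granule genes, secondary and gelatinase granule genes, cell cycle genes, Ly-6C(hi) monocyte genes and regulators. Bars give the mean and SD of 4 arrays; the mean of the 8 is highest in CKO monocytes and that of the secondary granule genes is highest in neutrophils.

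Of 19 transcription factors tested that are known in granulocyte or monocyte development, 5 were higher in CKO monocytes and 0 lower. Cebpe, C/EBP epsilon, needed for secondary granules, changed by 2.29 ± 0.32 (SE; adjusted p = 0.000177, limma). It had 8.31, 7.57, 9.08 and 9.20 in CKO monocytes and 5.27, 6.04, 6.96 and 6.72 in control monocytes, with no overlap. Myb, a progenitor factor, changed by 2.09 ± 0.29 (adjusted p = 0.000139). It had 8.31, 6.92, 8.61 and 8.92 in CKO monocytes and 5.87, 5.89, 6.44 and 6.21 in control monocytes. Myc (1.54, 0.000326), Zeb1, the relative of Zeb2 (1.31, 0.000133), and Gfi1, a repressor needed for granulocytes (1.10, 0.00024), also passed. Spi1, which encodes PU.1, had a log2 difference of 0.01 (adjusted p = 0.981) and Cebpa of -0.39 (adjusted p = 0.109). In neutrophils 0 of the 19 passed.

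**Figure D5:**
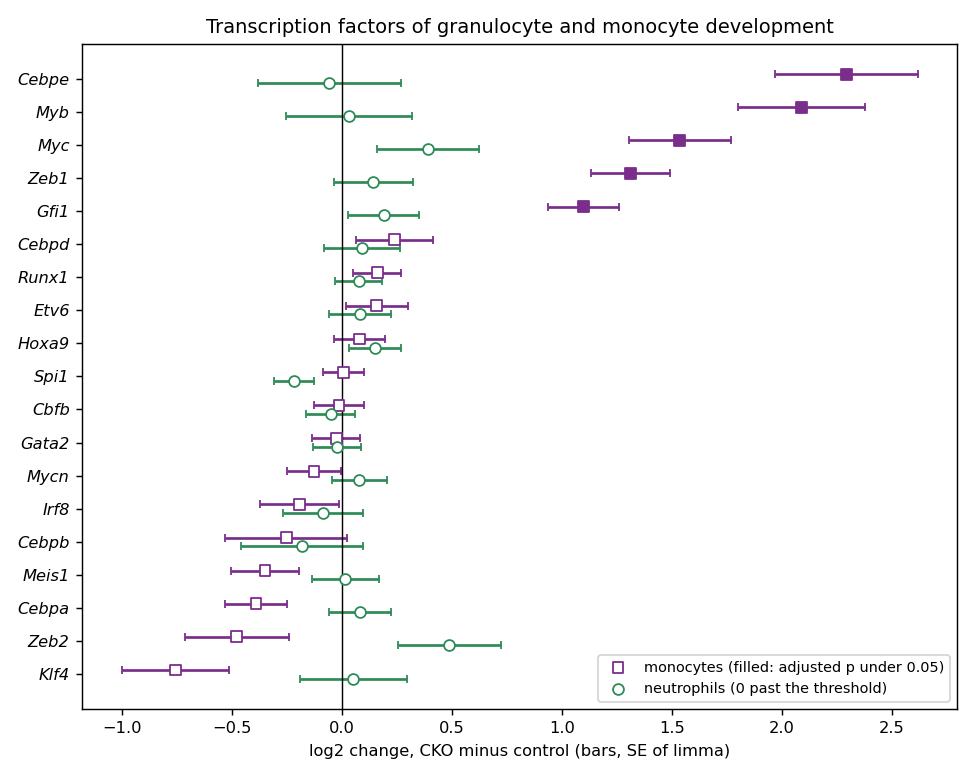
Log2 change, CKO minus control, of 19 transcription factors in monocytes (squares, filled where adjusted p was under 0.05) and neutrophils (circles), with SE bars from limma. Cebpe, Myb, Myc, Zeb1 and Gfi1 are filled, at 1.10 to 2.29, and no neutrophil value is past the threshold.

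Genes of other stages and cells moved beside the 8 in monocytes. Secondary and gelatinase granule genes, made later than primary granules, were higher for 22 of 25, with a median of 2.53 and the largest changes in Retnlg (5.55) and Ly6g (5.18, limma adjusted p = 5.88e-11 for both). The mean of that list was 9.51, 8.66, 9.45 and 9.39 in CKO monocytes and 6.45, 6.41, 7.40 and 7.05 in control monocytes. Its lowest CKO array was array 2 and its highest control array was array 4, as for Elane. Its highest CKO array was array 1 (9.51), whereas for Elane it was array 4. Cell cycle genes were higher for 10 of 23 (median 0.62), among them Mcm2 (1.23, adjusted p = 3.98e-05) and Rrm2 (1.28, 0.00268). Stem and progenitor genes were split, with Kit (2.01) and Erg (1.68) higher and Flt3 (-0.88) lower among 10. Ly-6C(hi) monocyte genes were lower for 7 of 18 (median -0.76), with Tmem176b (-1.32) and Cx3cr1 (-1.17) the lowest. The part of these genes in the result for the 8 was not tested. Of 6 eosinophil genes 2 were higher, Cebpe and Siglecf (1.10), while Epx and Ccr3 were below the 40th percentile on every monocyte array. Prg2 was below it on every control monocyte array but not on every CKO monocyte array. It averaged 4.15 in CKO and 3.87 in control monocytes (adjusted p = 0.696, limma). The mean of the 6 was 5.40 in CKO and 4.75 in control monocytes. Of 7 mast cell and basophil genes 2 were higher, Kit and Hdc (1.35), with Cpa3, Fcer1a and Ms4a2 below the 40th percentile on every array. Mcpt8, a basophil protease of the same list, averaged 6.09 in CKO and 4.68 in control monocytes (log2 difference 1.41, adjusted p = 0.0646, limma) and 5.93 in CKO and 4.80 in control neutrophils (1.14, 0.891), and its part in the result for the 8 was not tested.

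The genes outside the group whose pattern was most like the mean of the 8 over the 18 arrays were Gmnn (Pearson r = 0.968), Slc43a3 (0.967), Cenph (0.965), Cenpk (0.960), Mcm10 (0.960), Arsb (0.958), Asf1b (0.958), Cst7 (0.956), Gatm (0.955) and Ptgr1 (0.954). The 8 genes themselves had r of 0.859 (Gstm1) to 0.994 (Elane) with that mean. It was taken after each gene was scaled by its own mean and SD. It includes the gene compared, which raises these r values by construction. All 10 were higher in CKO monocytes, by 0.52 for Mcm10 to 2.10 for Gatm (limma). The 10 were picked for likeness to a mean that is highest in CKO monocytes. Their direction there is therefore largely set by the choice. Leaving out 1 monocyte array ended the call in 5 of 8 fits for Cenpk (adjusted p up to 0.0925), 6 of 8 for Cst7 (up to 0.101) and 5 of 8 for Ptgr1 (up to 0.0995). The arrays share cell types and groups, and with Spearman's rho 2 of the 10 stayed among the closest 10, so the list depends on the measure.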

How the data were processed

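The deposited values are log2 intensities per probe set, summarised by the authors with RMA, per the submitters' processing notes. RNA was extracted with RNAqueous-Micro and amplified with Ovation PicoSL, per the labels' protocols, and the software that ran RMA is not given in the sources used here. Values ran from 1.05 to 13.5. Of 30177 probe sets, 21789 had 1 symbol, 1621 several and 6767 none, from the platform annotation with symbols updated to RefSeq (99.59% of genes matched). A gene with several kept the one with the highest mean.

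Tested genes (13387 of 19938) exceeded the 40th percentile of an array on 4 or more of the 18. The test was limma 3.58.1 (R 4.3.3), fitted as 1 model of 6 group means with 12 residual degrees of freedom and a variance trend, two-sided, with Benjamini-Hochberg adjustment at 0.05. The script was tested on simulated data. The contrasts were CKO minus control for monocytes and for neutrophils, the monocyte change minus the neutrophil change, and control monocytes against control neutrophils. Untreated arrays entered no contrast.

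Deviations from group means of CKO and control arrays with the same number correlated at 0.183 to 0.428 in 6 of 6 pairs, so the replicate block was used as a second fit, although same-set pairs of other numbers correlated at 0.127 to 0.348 and the labels state no pairing. CKO number 3 shares its number only with the untreated control and control number 5 with no CKO array, so those arrays formed no such pair. No 2 arrays were the same. The members, gene lists and tests were chosen with earlier results of these data known. The genes named are the 8, the 10 most alike in pattern, up to 4 called genes of each list with the largest change, all called regulators and Zeb2; other list members and the comparison with the order of Zeb2 were picked after their values were seen. Upstream sequences, positions and names are from RefSeq (GRCm38.p6), and all 8 matched. Alternatives changed the filter, normalization, arrays in the fit, variance trend, array set, replicate block, probe sets per gene, array weights and each replicate.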

Additional observations from a re-analysis of the deposited data

Results flagged for a closer look

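Mpo on CKO monocyte array 2 read 10.55 (log2), far below the other 3 CKO monocyte arrays at 11.82 to 12.06. The same array was the lowest of its group for all 8 genes. Elane on control neutrophil array 4 read 4.854, apart from the other 3 at 5.01 to 5.04, in a group whose whole spread is small. Each group of 4 arrays was examined for each gene, 32 in all, and 2 held such an array, where chance alone gives about 1 in 20.

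The Fcnb change with genotype was larger in monocytes than in neutrophils by 2.889 (log2), by a test of that difference (adjusted p = 0.00201, limma).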

How the results depend on the processing

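In monocytes the direction of all 8 changes held under every alternative run, and Fcnb, Nkg7, Ms4a3, Ctsg, Prtn3 and Mpo passed under every one. Elane missed with only the monocyte arrays in the fit (adjusted p = 0.0572). Gstm1 missed without a filter (0.0601), after quantile normalization (0.0894), with only the monocyte arrays (0.106), within array set A (0.81), with the replicate block (0.0642) and without any array but CKO 2; its adjusted p over all 19 alternatives ran from 0.000405 to 0.81. Leaving out 1 array gave 7 to 8 of the 8 called. The replicate block changed no other call in either genotype comparison.

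Counts of called genes moved more. In monocytes, 1010 genes were called, against 500 with only the arrays compared, 1516 with the array set as a block, 215 and 1724 within sets A and B and 1613 with array weights; leaving out 1 array gave 620 to 2001, the ends without CKO array 4 and without CKO array 2, and 621 without CKO array 3. In neutrophils, 16 were called, against 9 and 3 with only the arrays compared and within set A, and 8 to 17 on leaving out 1 array (8 without CKO array 1, 9 without control array 4). For the difference between cell types, 359 were called, against 567 with the set as a block, 72 and 731 within sets A and B and 650 with weights, and 245 to 904 on leaving out 1 array (904 without CKO monocyte array 2). Of the 8 genes, 1 was called there, against 4 with the set as a block, 5 and 3 within sets A and B, 5 with the replicate block, 5 with the replicate block within genotype and 5 with weights, and 1 to 6 on leaving out 1 array. Between control cell types, 5 of 8 were called, with 7846 genes. The set as a block gave 7 of 8 with 8265 genes, and set B alone 8 of 8 with 6247. Leaving out 1 array gave 5 to 7 of 8, with 7034 to 7440 genes.

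Some directions turned, in each case for a difference that had not passed the test with both sets. In neutrophils within set A, Prtn3 read -0.42 and Fcnb -0.0404, and leaving out 1 array gave -0.206 (without CKO array 4) to 0.427 for Prtn3 and -0.00684 (without control array 4) to 0.434 for Fcnb. The difference between cell types for Gstm1 read -0.00638 after quantile normalization and -0.272 within set A. Control monocytes minus control neutrophils within set A read -0.219 for Fcnb and -0.0721 for Nkg7, against 0.63 and 1.22 with both sets. The causes were not tested. The median change over all genes stayed within 0.1 of 0 in both genotype comparisons under every setting. Signal near the 40th percentile limits what Ctsg, Prtn3 and Nkg7 can show in neutrophils, and 4 arrays a group limit the rest.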
